A study of Mus musculus with 63 samples.

Results

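The hearts compared here are nontransgenic mouse hearts at 5 weeks of age and at postnatal day 1 (P1), the widest span of postnatal age in the study. The 5-week group is the 4 nontransgenic libraries whose titles place them in the P1 library batch, and the P1 group is all 6 nontransgenic P1 libraries. These are 10 of the 63 libraries of the series. The 5-week hearts are called A to D and the P1 hearts 1 to 6, in the order of their title numbers. The series asks how mitophagy, the removal of damaged mitochondria through Parkin, bears on the maturation of heart mitochondria around birth. It profiles polyadenylated RNA of hearts at P1, P21 and 5 weeks from mice carrying mitofusin 2 transgenes, from tet-off driver mice and from nontransgenic mice. All hearts of the comparison were nontransgenic, on the FVB/N strain background, and given no treatment that the labels name. Hearts of tet-off driver mice, which carry a transgene, enter only where they are named. The submitters remade libraries of older hearts from stored total RNA together with the P1 libraries. Of the 4 hearts at 5 weeks, A, B and D also have a library in the 5-week batch under the same number.

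The labels give the tissue as left ventricle for the 5-week hearts and as whole heart for the P1 hearts, whereas the extraction protocol gives the ventricular apex for all. Age and labelled tissue therefore cannot be told apart here. Sex is not given. Transcripts of Xist exceeded those of 4 Y-linked genes in 2 of 4 hearts at 5 weeks and in 3 of 6 at P1, so both groups mixed sexes. The titles of 5 of the 6 P1 hearts share the first part of their animal number, whereas those of the 4 hearts at 5 weeks have 4 different ones. The labels do not say what that part stands for, nor that hearts of a group came from separate litters, and p-values measure only the spread between these libraries. In these bulk samples fewer cells of a type and less RNA per cell cannot be told apart.

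After birth the mouse heart passes from a tissue that grows by cell division, burns glucose and lactate and is built from fetal protein isoforms to one that grows by cell enlargement and burns mainly fatty acids. Cardiac muscle cells leave the cell cycle, gain T-tubules and a dense sarcoplasmic reticulum for calcium, and pack their cytoplasm with mitochondria. Mitofusin 2, a fusion protein of the outer mitochondrial membrane, is marked by the kinase PINK1 and then binds the ubiquitin ligase Parkin, which tags mitochondria for removal.

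Libraries held 5836840 to 10425806 reads assigned to genes at 5 weeks and 7147271 to 12380233 at P1. Levels are given as CPM, read counts scaled to a common library size with TMM, and genes were called at an adjusted p under 0.05 in edgeR's quasi-likelihood test with Benjamini-Hochberg adjustment over all genes tested. Of 13534 genes tested, 9106 were called (67.3%), of which 4417 were higher at 5 weeks (32.6% of those tested) and 4689 lower (34.6%). On the authors' FPKM values with limma the split was 2892 higher and 6505 lower, with the median of all genes at -0.25 against -0.05 in the count test. The FPKM values differ from the counts in quantification, scaling and test together. A change of at least 2-fold was seen in 1645 called genes that rose (12.2%) and 1661 that fell (12.3%). The 4 libraries at 5 weeks and the 6 at P1 did not overlap in CPM in 7253 genes (53.6%). With so many genes called, the counts below are to be read against these shares.

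One library at 5 weeks stood apart before any comparison. Heart B held transcripts of airway and fat cells: Scgb1a1, the secretoglobin of airway club cells, was at 252 CPM there and at 23, 8.96 and 0.551 CPM in hearts A, C and D, against 0.125 CPM or less in every P1 library. Adipoq, the adipocyte hormone adiponectin, was at 12.6 CPM there and at 1.29 to 2.24 CPM in the other 5-week libraries, and no P1 library held a read of it. With 3 counts over the P1 group as the floor it was at least 104-fold higher at 5 weeks, and at least 33.4-fold higher without heart B. The library made from heart B in the 5-week batch was also the highest of its group, at 107 CPM for Scgb1a1 and 10.3 CPM for Adipoq when scaled to library totals alone. Summed over 8 adipocyte markers, the range was 41.3 to 299 CPM at 5 weeks and 35.7 to 49.1 CPM at P1. The sum does not show the single members. Of the 6 that passed the count filter 5 were called higher at 5 weeks and 1 was not called (-0.02), with a median log2 change of 7.04. Adipoq, with no P1 read, could pass only through the older libraries, so its direction was fixed in advance. For members scarce at P1, this count and median are no separate evidence of a rise. Results on genes of airway and fat cells are given with the values of heart B beside them. All 10 ventricular cardiomyocyte markers listed were detected, and their sum ran from 89400 to 99900 CPM at 5 weeks and from 50700 to 66200 CPM at P1. The members moved both ways, with 5 called higher at 5 weeks, 3 called lower and 2 not called. Their log2 changes ran from -3.59 to 1.39 (median 0.29).

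Genes that drive cell division fell nearly as a block. Of 56 cell cycle drivers tested, 55 fell and none rose, 53 of them by at least 2-fold, with a median log2 change of -3.41. The exception was Gmnn, geminin, an inhibitor of DNA replication licensing, with 29.4, 26.5, 25.3 and 23.3 CPM at 5 weeks against 17.5, 22.9 and 27.3 CPM (lowest, median and highest) at P1, which missed the threshold (adjusted p = 0.145).

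Summed over the 56 drivers, the range was 538 to 586 CPM at 5 weeks and 1930 to 2310 CPM at P1. The drivers given next were among those that fell most. Ccnb2, cyclin B2, which drives entry into mitosis, had 0.718, 0.723, 0.498 and 0.735 CPM in the 5-week hearts A, B, C and D, the order used throughout. At P1 it had a lowest value of 20.1, a median of 24 and a highest of 30.2 CPM. The groups were far apart, and the log2 change was -5.16 ± 0.42 (SE, adjusted p = 9.85e-08). Bub1b, a kinase of the spindle checkpoint, averaged 0.833 ± 0.226 CPM at 5 weeks (SD, n = 4) and 25.1 ± 1.94 CPM at P1 (SD, n = 6). Cdc25c, the phosphatase that switches on the mitotic kinase, had reads in 1 of 4 libraries at 5 weeks and 2.66 to 5.01 CPM at P1, and its log2 change of -6.58 was -8.41 without that library, of heart A. Cenpm, a centromere protein outside the list, was among the 15 greatest falls, at 0.15 ± 0.109 CPM at 5 weeks (SD, n = 4) and 10.9 ± 2.42 CPM at P1 (SD, n = 6).

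Promoters of 3 of these genes are shown because genes of this kind are known to share a pair of short elements, CCAAT, bound by the factor NF-Y, and TTTGAA, the cell cycle homology region. They are the drivers with the greatest falls whose window holds both motifs. Each is given on the gene's strand from RefSeq on GRCm38.p6, 250 bases before to 50 after the start, with both motifs on either strand in capitals.
Ccnb2: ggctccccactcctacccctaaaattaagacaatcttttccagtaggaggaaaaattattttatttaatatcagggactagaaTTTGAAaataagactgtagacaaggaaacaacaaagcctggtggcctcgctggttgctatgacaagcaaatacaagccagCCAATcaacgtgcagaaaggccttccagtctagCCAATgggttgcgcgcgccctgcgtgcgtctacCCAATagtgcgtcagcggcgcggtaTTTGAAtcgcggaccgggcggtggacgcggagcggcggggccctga
Bub1b: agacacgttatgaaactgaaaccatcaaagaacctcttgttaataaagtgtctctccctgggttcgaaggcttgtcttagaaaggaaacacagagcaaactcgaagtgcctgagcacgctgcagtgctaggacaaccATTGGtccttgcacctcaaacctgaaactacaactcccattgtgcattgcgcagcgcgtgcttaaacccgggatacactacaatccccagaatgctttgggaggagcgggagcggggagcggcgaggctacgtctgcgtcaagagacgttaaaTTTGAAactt
Top2a: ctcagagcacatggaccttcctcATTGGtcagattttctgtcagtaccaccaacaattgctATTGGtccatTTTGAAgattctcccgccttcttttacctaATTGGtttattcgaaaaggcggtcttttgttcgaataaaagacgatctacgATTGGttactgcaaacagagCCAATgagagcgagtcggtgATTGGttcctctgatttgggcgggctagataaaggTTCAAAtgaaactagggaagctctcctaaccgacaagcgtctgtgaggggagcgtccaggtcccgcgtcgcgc
The window of Ccnb2 lies at chr9:70421505-70421804 (minus strand), that of Bub1b at chr2:118597961-118598260 (plus strand) and that of Top2a, the topoisomerase that untangles replicated DNA, at chr11:99024140-99024439 (minus strand). Promoters were found for 44 of the 55 drivers that fell. CCAAT, read on both strands, was in 70.5% of these genes against 41.1% of all 27025 genes with a window, and TTTGAA in 45.5% against 20.2%. Both stood in 40.9% of them against 7.97% of all genes, and the motifs overlapped in none of the 49 windows of the drivers. A match is a description of letters in a window, not a site of binding.

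Inhibitors of the cell cycle did not move as one. Of 16 tested, 5 rose and 9 fell, and the median log2 change was -0.30. Ccng1, a cyclin induced by p53, had 564, 568, 665 and 591 CPM at 5 weeks against 116, 140 and 157 CPM at P1, a log2 change of 2.11 ± 0.11 (adjusted p = 9.28e-13). Cdkn1c, the imprinted inhibitor p57, averaged 22.9 ± 4.18 CPM at 5 weeks (SD, n = 4) and 48.3 ± 7.95 CPM at P1 (SD, n = 6). Rbl1, the pocket protein p107, fell by 1.67 on the log2 scale. Cdkn1a, the inhibitor p21, was at 24.7 to 46.5 CPM at 5 weeks and 29.8 to 43 CPM at P1 and was not called (adjusted p = 0.628).

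Imprinted and fetal growth genes fell without exception among the 26 tested, 24 of them by at least 2-fold, with a median log2 change of -2.42. H19, an imprinted noncoding RNA at chr7:142575532-142578146 in mm10, had 52.5, 58.9, 47.3 and 63 CPM at 5 weeks against 3008, 3563 and 4348 CPM (lowest, median and highest) at P1. Igf2, the fetal growth factor encoded beside it at chr7:142650768-142661035, had 129, 112, 100 and 123 CPM at 5 weeks against 2074, 2395 and 2769 CPM at P1, a log2 change of -4.36 ± 0.13 (adjusted p = 1.03e-16). Neither gene's groups came near each other. Dlk1, an imprinted inhibitor of Notch signalling, was at 0.184 to 0.373 CPM at 5 weeks and 33 to 49.9 CPM at P1. Igf2bp1, an RNA-binding protein of embryonic cells, had reads in 2 of 4 libraries at 5 weeks and 18.9 to 27.7 CPM at P1, with a log2 change of -6.92, or -7.61 without heart B. Plagl1, an imprinted zinc finger factor, fell by 4.79 ± 0.12 on the log2 scale (adjusted p = 3.48e-17) and Mest by 4.88 ± 0.28 (adjusted p = 7.08e-09). Igf1, the growth factor of later life, was also lower in the 5-week hearts, at 15 ± 3.11 CPM (SD, n = 4) against 52.4 ± 3.1 CPM at P1 (SD, n = 6).

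The sarcomere, the contractile unit of muscle, changed its isoforms. Tnni1, the slow skeletal troponin I of the fetal heart, at chr1:135799421-135810989 in mm10, had 10.8, 7.13, 11.3 and 16.9 CPM at 5 weeks against 2087, 2235 and 2503 CPM (lowest, median and highest) at P1. The log2 change was -7.65 ± 0.68 (adjusted p = 1.78e-06). The remnant at 5 weeks differed between library batches. The 3 hearts with a library in both batches had 9.69, 6.62 and 15.8 CPM (scaled to library totals alone) in the P1 batch against 0.178, 0.558 and 0.87 CPM in the 5-week batch, from the same RNA. The cause was not tested, and 10.7 CPM on average in the P1 batch and 0.536 CPM in the 5-week batch stand against 2469 CPM at P1 on that scale.

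Tnni3, the cardiac troponin I that takes its place, had 5992, 5114, 5611 and 5239 CPM at 5 weeks against 2908, 2986 and 3360 CPM at P1, a log2 change of 0.86 ± 0.10 (adjusted p = 1.95e-07). By FPKM, which divides by transcript length and so allows genes to be compared, Tnni3 made up 99.9% ± 0.0559 of the pair at 5 weeks (SD, n = 4) and 65.3% ± 2.39 at P1 (SD, n = 6). Myh6, the fast cardiac myosin heavy chain, made up 82.2% ± 0.288 of the pair with Myh7, the slow one, at 5 weeks (SD, n = 4) and 63.6% ± 1.15 at P1 (SD, n = 6). From counts per exon length the same shares were 93.5% and 70.2%. Myh7 had 3593, 3720, 3514 and 3405 CPM at 5 weeks, below every P1 library (6324 to 11192 CPM), and its call was lost where 5-week libraries of the 5-week batch were used.

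Of 16 fetal sarcomere and cytoskeleton isoforms, 9 fell and 4 rose (median log2 change -1.19). Myl9, a smooth muscle myosin light chain, had 57, 105, 98.9 and 97.4 CPM at 5 weeks against 454 to 682 CPM at P1. Acta1, skeletal muscle actin, moved against the list's name, with 806, 836, 1135 and 642 CPM at 5 weeks against 47.1, 66.9 and 78.3 CPM at P1. The log2 change of Acta1 was 3.70 ± 0.15 (adjusted p = 1.05e-13). By FPKM the cardiac actin Actc1 made up 93.2% of the pair at 5 weeks and 99.2% at P1. The atrial light chains Myl7 and Myl4 were not called (adjusted p = 0.0575 and 0.176). Myl7 ranged from 25.1 to 216 CPM at 5 weeks and from 197 to 913 CPM at P1, and 13 atrial markers, all detected, summed to 321 to 1080 CPM at 5 weeks and 668 to 3060 CPM at P1. How much atrial tissue each piece of heart held was not tested.

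Genes of the adult sarcomere and Z-disc rose in 20 of 26 cases and fell in 1 (median 1.03). Xirp2, an actin-binding protein of the intercalated disc, had 605, 698, 798 and 736 CPM at 5 weeks against 9.2, 14 and 39.5 CPM at P1, the highest being P1 heart 5. Its log2 change was 5.40 ± 0.38 (adjusted p = 1.84e-07). Myot, the Z-disc protein myotilin, averaged 28.7 ± 3.79 CPM at 5 weeks (SD, n = 4) and 1.56 ± 0.664 CPM at P1 (SD, n = 6). Cmya5, which ties the sarcomere to calcium release units, rose by 3.35, Tcap, the cap of titin, by 2.84 and Lmod2, which sets thin filament length, by 2.61 on the log2 scale. Cardiac actin Actc1 was not called, nor was Tnnt2, cardiac troponin T, at 12251 ± 756 CPM at 5 weeks (SD, n = 4) and 11917 ± 1592 CPM at P1 (SD, n = 6). The member called lower was Myl2, the ventricular light chain, at -0.30 ± 0.12 (adjusted p = 0.0321), with overlapping groups. Its call was lost when P1 heart 3 or 5, or 5-week heart B or D, was left out.

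**Figure D1:**
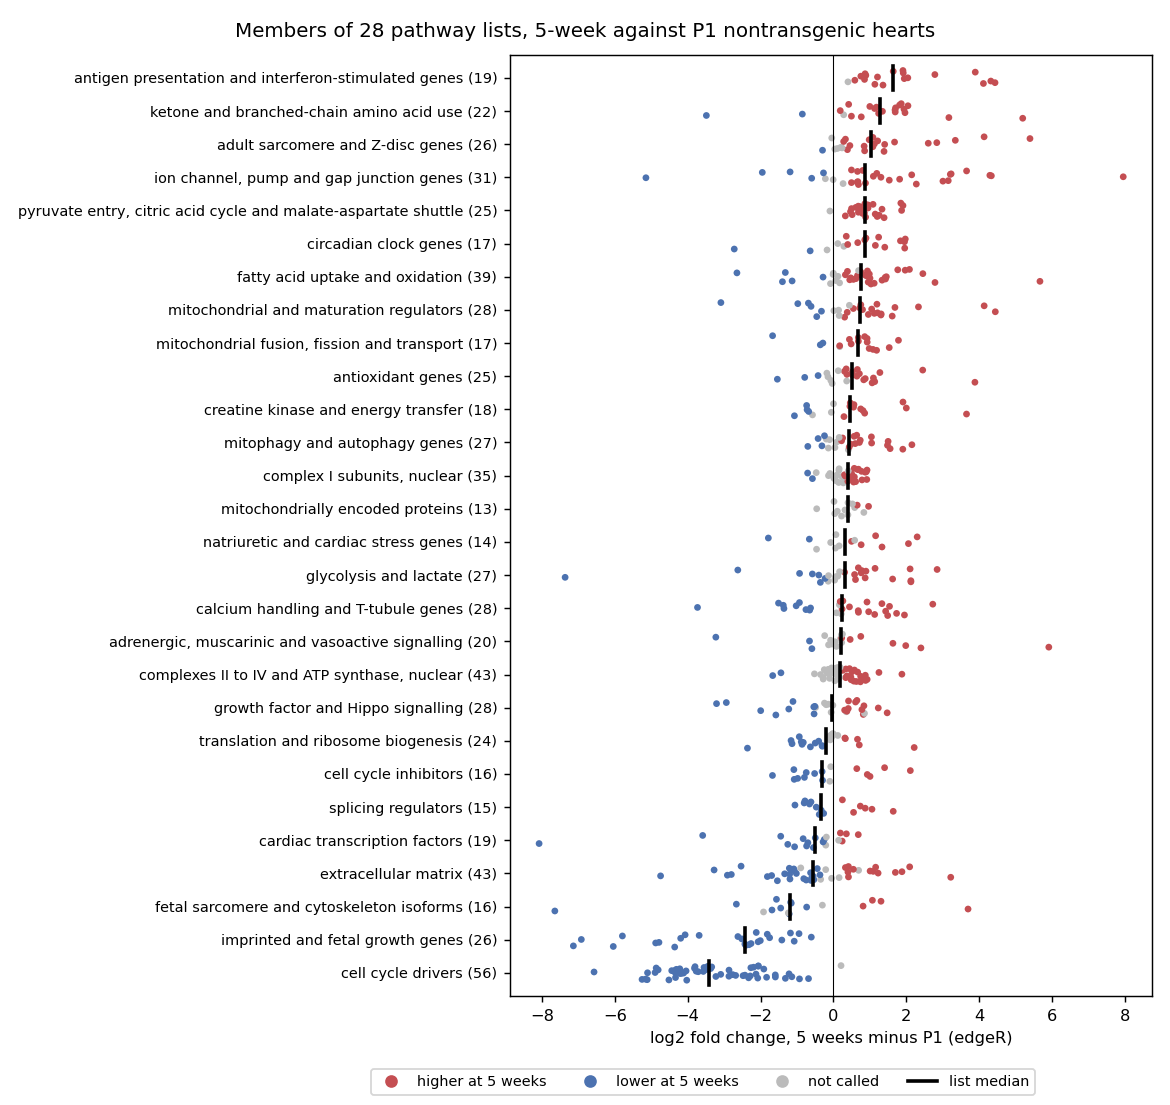
Log2 fold change from edgeR (5 weeks minus P1, horizontal axis) of each tested member of 28 pathway lists, with the number tested in brackets. Red points were called higher at 5 weeks, blue points lower and grey points not called, and black bars are list medians. Cell cycle drivers have the lowest median (-3.41) and antigen presentation genes the highest (1.64).

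Calcium handling and T-tubule genes moved both ways, 16 of 28 up and 9 down (median 0.25). Atp2a2, the SERCA2 pump that refills the store, had 13632, 13181, 12819 and 13903 CPM at 5 weeks against 2759, 3507 and 4259 CPM at P1. The log2 change was 1.95 ± 0.13 (adjusted p = 2.18e-11), and the groups lay far apart. Hrc, a calcium-binding protein inside the store, rose by 2.73 ± 0.13 (adjusted p = 1.61e-13), and Pln, phospholamban, the brake on the pump, by 1.13 ± 0.11 (adjusted p = 1.19e-08). Cacna1h, a T-type calcium channel of fetal heart muscle, had 4.02, 3.72, 2.74 and 5.51 CPM at 5 weeks against 44.9 to 60.2 CPM at P1. Casq1, the skeletal calsequestrin, was at 257 ± 3.32 CPM at 5 weeks (SD, n = 4) and 77 ± 18.9 CPM at P1 (SD, n = 6), while its cardiac relative Casq2 was at 739.5 ± 31.3 CPM at 5 weeks and 697 ± 40.3 CPM at P1 and was not called (adjusted p = 0.3755).

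Channels, pumps and gap junction genes rose in 23 of 31 cases and fell in 5 (median 0.88). Kcnv2, a modulatory potassium channel subunit, had 21.1, 22.4, 24.4 and 28.5 CPM at 5 weeks against reads in 2 of 6 libraries at P1, with 0.392 CPM in P1 heart 5 the highest. Its log2 change was 7.96, or 9.49 without that library. Scn4b, a sodium channel beta subunit, had 104, 89.7, 88.8 and 71.8 CPM at 5 weeks against 3.08, 4.99 and 5.33 CPM at P1, a log2 change of 4.30 ± 0.22 (adjusted p = 8.4e-10). Scn4a, the skeletal sodium channel, rose by 4.34 and Hcn2, a pacemaker channel, by 3.23 on the log2 scale. The greatest fall was of Kcne1, the beta subunit of a slow potassium current, with 2.58, 2.79, 4.11 and 3.67 CPM at 5 weeks against 106, 116 and 125 CPM at P1 (log2 change -5.15 ± 0.19, adjusted p = 2.4e-13). Gja5, connexin 40, of atrial and conduction tissue, was lower, at 13.4 ± 4.17 CPM at 5 weeks (SD, n = 4) and 52 ± 8.71 CPM at P1 (SD, n = 6). Kcna5, an atrial potassium channel, was not called, at 26.3 to 31.6 CPM at 5 weeks and 27.1 to 34.2 CPM at P1.

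Of 20 genes of adrenergic, muscarinic and vasoactive signalling 7 rose and 3 fell (median 0.21), shares of 35% and 15% against the background of 32.6% and 34.6%. Adra1a, the alpha 1A adrenergic receptor, had 40.1, 35.9, 42.2 and 37.3 CPM at 5 weeks against 0.227, 0.603 and 0.979 CPM at P1, a log2 change of 5.92 ± 0.23 (adjusted p = 6.85e-14). Chrm2, the muscarinic receptor of the vagus nerve, averaged 74.6 ± 4.24 CPM at 5 weeks (SD, n = 4) and 18.8 ± 1.73 CPM at P1 (SD, n = 6). Ppp1r1a, a phosphatase inhibitor under the control of protein kinase A, fell by 3.23 ± 0.24 on the log2 scale. Adcy6, an adenylyl cyclase of heart muscle, was not called, at 469 ± 15 CPM at 5 weeks (SD, n = 4) and 482 ± 29.5 CPM at P1 (SD, n = 6).

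Most genes of fatty acid, citric acid cycle and ketone use rose. For fatty acid uptake and oxidation, 27 of 39 rose and 5 fell (median 0.745). Lpl, the lipase that frees fatty acids from lipoproteins, had 4203, 3794, 3727 and 4219 CPM at 5 weeks against 511, 568 and 655 CPM at P1, a log2 change of 2.79 ± 0.11 (adjusted p = 5.44e-15). Acsl6, a fatty acid activating enzyme, averaged 12.4 ± 2.31 CPM at 5 weeks (SD, n = 4) and 0.223 ± 0.137 CPM at P1 (SD, n = 6). Ech1, which handles unsaturated chains, rose by 2.46. Acot1, a cytosolic thioesterase, fell by 2.65 ± 0.15, and Cpt1a, the carnitine transferase of fetal heart and liver, by 1.13 ± 0.09 on the log2 scale. Fabp3, the fatty acid binding protein, and Acaa2, a thiolase, were not called (adjusted p = 0.594 and 0.302).

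The muscle carnitine transferase Cpt1b cannot be read from the counts, since 94.8% of its exonic bases overlap another gene and such reads are ambiguous. By FPKM it made up 95.8% ± 0.0351 of the pair with Cpt1a at 5 weeks (SD, n = 4) and 89% ± 0.506 at P1 (SD, n = 6). From counts per exon length the shares were 16.8% and 8.01%.

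Genes of glycolysis and lactate moved both ways, 14 of 27 up and 7 down (median 0.31). Slc2a4, the insulin-regulated glucose carrier GLUT4, had 565, 513, 486 and 436 CPM at 5 weeks against 99.8, 114 and 129 CPM at P1 (log2 change 2.13 ± 0.11, adjusted p = 3.14e-13). Hk2, the muscle hexokinase, averaged 656 ± 45.1 CPM at 5 weeks (SD, n = 4) and 150 ± 16.4 CPM at P1 (SD, n = 6). By FPKM its share of the pair with Hk1 was 59.3% ± 1.34 at 5 weeks (SD, n = 4) and 23.4% ± 2.97 at P1 (SD, n = 6). Pfkfb1, which makes a glycolytic activator, rose by 2.85. Aldoc, the brain-type aldolase, had reads in 1 of 4 libraries at 5 weeks and 11.1 to 16 CPM at P1, with a log2 change of -7.37, or -9.99 without that library, of heart A. Slc16a3, a lactate exporter, fell by 2.63 ± 0.16 on the log2 scale. Gapdh was not called, at 1987 ± 245 CPM at 5 weeks (SD, n = 4) and 1828 ± 241 CPM at P1 (SD, n = 6).

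For pyruvate entry and the citric acid cycle, 24 of 25 genes rose and none fell (median 0.865). Ogdh, the oxoglutarate dehydrogenase, had 4048, 4108, 3745 and 3386 CPM at 5 weeks against 877, 1035 and 1256 CPM at P1, a log2 change of 1.87 ± 0.12 (adjusted p = 1.95e-11). Got1, a transaminase of the malate-aspartate shuttle, rose by 1.91 ± 0.09 on the log2 scale. The gene not called was Idh2, the NADP-linked mitochondrial isocitrate dehydrogenase, at 1449 ± 72.5 CPM at 5 weeks (SD, n = 4) and 1548 ± 109 CPM at P1 (SD, n = 6).

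Ketone and branched-chain amino acid genes had the second highest median of the pathway lists (1.29), with 19 of 22 risen and 2 fallen. Oxct1, the enzyme that commits ketone bodies to use, had 1036, 994, 987 and 937 CPM at 5 weeks against 95.5, 107 and 132 CPM at P1, a log2 change of 3.17 ± 0.09 (adjusted p = 1.03e-16). Ivd, of leucine breakdown, averaged 271 ± 11.1 CPM at 5 weeks (SD, n = 4) and 70.5 ± 6.38 CPM at P1 (SD, n = 6).

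Bdh1, the hydroxybutyrate dehydrogenase that opens ketone use, at chr16:31422297-31458901 in mm10, was low at both earlier ages. It had 3.41 to 5.36 CPM at P1 and 2.55, 5 and 2.22 CPM in the 3 P21 hearts of the same batch, which overlap, and then 218, 187, 160 and 108 CPM at 5 weeks. The log2 change was -0.45 ± 0.35 for P21 over P1 (adjusted p = 0.288) and 5.65 ± 0.31 for 5 weeks over P21 (adjusted p = 3.4e-07). These tests share the P21 libraries. In libraries of the other batches and of tet-off hearts, scaled to library totals alone, Bdh1 ranged from 3.07 to 8.67 CPM in 5 P1 tet-off hearts and from 1.98 to 17.9 CPM in 6 nontransgenic P21 hearts of the P21 batch, 3 of which are the P21 hearts above sequenced again. In the 5-week batch it ranged from 84.3 to 162 CPM in 4 nontransgenic hearts, among them hearts A, B and D, and from 84.7 to 150 CPM in 3 tet-off hearts.

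**Figure D2:**
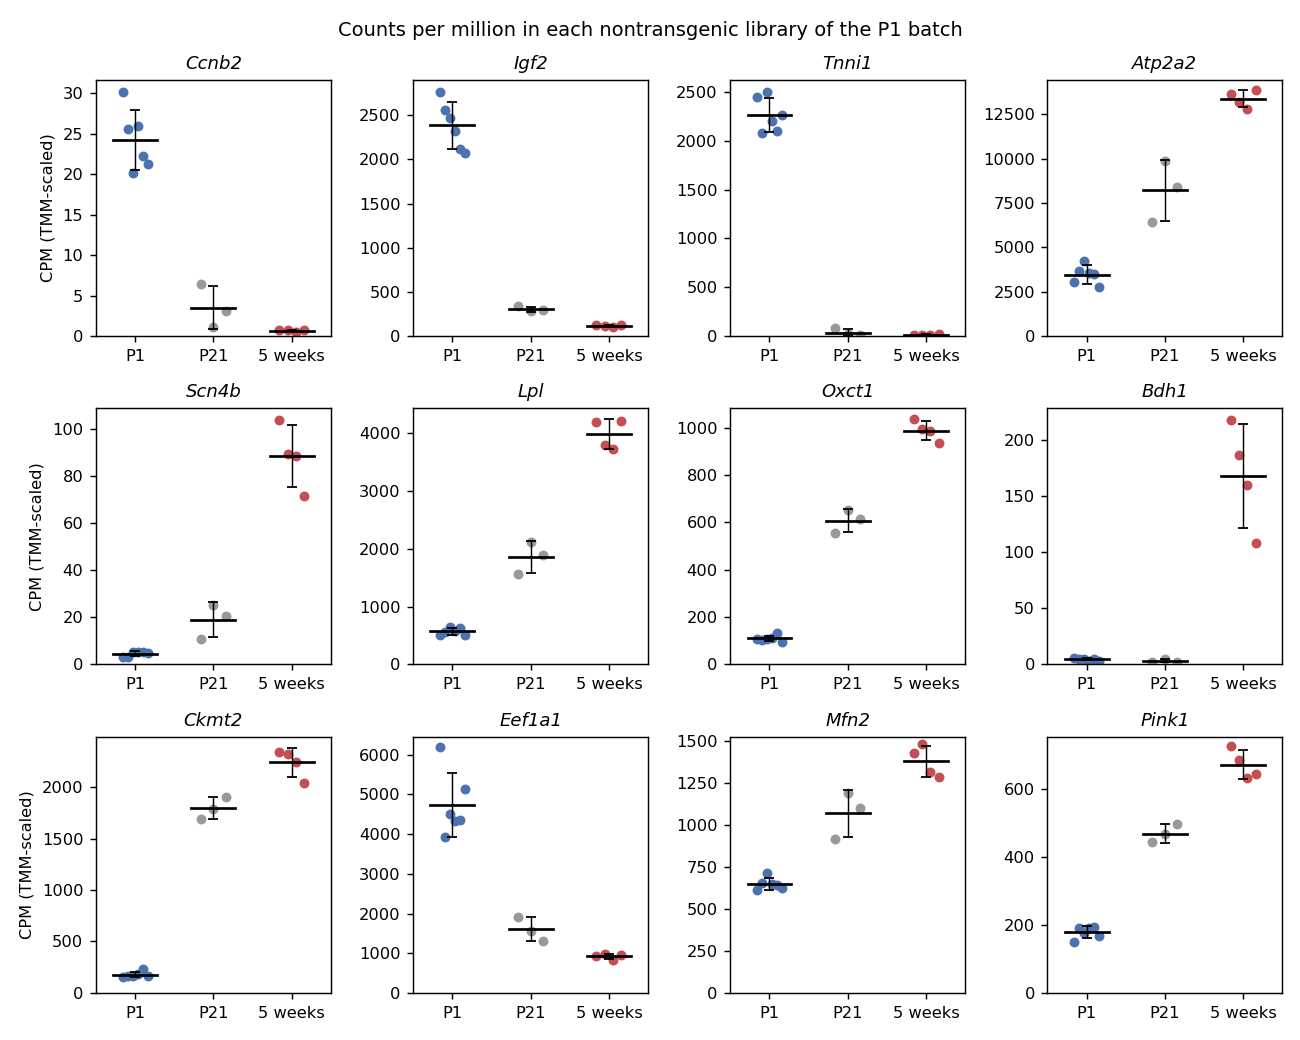
CPM (TMM-scaled, linear axis from 0) of 12 genes in each nontransgenic library of the P1 batch at P1 (n = 6), P21 (n = 3) and 5 weeks (n = 4), with bars for the mean and whiskers for the SD. Bdh1 stays at or below 5.36 CPM at P1 and P21 and lies at 108 CPM or above at 5 weeks, while Ckmt2 and Oxct1 have made most of their rise by P21.

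Median changes of respiratory chain genes were smaller than those of the fatty acid, citric acid cycle and ketone lists. Of 35 nuclear complex I genes 20 rose and 2 fell (median 0.41), none by 2-fold. Ndufs7, a core subunit, averaged 595 ± 43.2 CPM at 5 weeks (SD, n = 4) and 314 ± 24.1 CPM at P1 (SD, n = 6). Ndufv2 was not called, at 485 to 544 CPM at 5 weeks and 333 to 634 CPM at P1. Of 43 nuclear genes of complexes II to IV and ATP synthase 21 rose and 2 fell (median 0.185), and 20 were not called. Atp5g3, a ring subunit of ATP synthase, was at 884 ± 66.7 CPM at 5 weeks (SD, n = 4) and 973 ± 135 CPM at P1 (SD, n = 6).

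Within complex IV, cytochrome c oxidase, muscle forms of 3 subunits gained share over the liver forms. Cox7a1, a muscle form, had 1339, 1146, 1078 and 1028 CPM at 5 weeks against 205, 284 and 459 CPM at P1. Cox6a1, a liver form, had 128, 152, 112 and 93.9 CPM at 5 weeks against 328, 380 and 476 CPM at P1, and Cox8a likewise fell by 1.44 ± 0.12 on the log2 scale. By FPKM the muscle form made up 93.1% ± 1.3 of Cox6a at 5 weeks (SD, n = 4) and 69.2% ± 3.83 at P1 (SD, n = 6). For Cox7a the share of Cox7a1 was 90.6% ± 0.85 at 5 weeks (SD, n = 4) and 64.9% ± 1.68 at P1 (SD, n = 6). For Cox8, Cox8b made up 90.6% ± 0.0853 at 5 weeks (SD, n = 4) and 59.2% ± 4.57 at P1 (SD, n = 6). The groups did not overlap in any of these 3 pairs.

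Of 13 proteins encoded by mitochondrial DNA, 2 rose and none fell (median 0.40). mt-Co1, the catalytic subunit of complex IV, had 18857, 16555, 23795 and 23412 CPM at 5 weeks against 6693, 10560 and 16403 CPM at P1 (log2 change 0.97 ± 0.19, adjusted p = 2.80e-04). mt-Nd1, of complex I, ranged from 5727 to 6840 CPM at 5 weeks and from 2843 to 7892 CPM at P1 and was not called. Genes of mitochondrial DNA took 4.64% to 7.22% of counts at 5 weeks and 2.57% to 7.89% at P1. These transcripts were read after poly(A) selection, which captures them unevenly.

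Of 18 genes of creatine kinase and energy transfer 11 rose and 4 fell (median 0.46). Ckmt2, the mitochondrial creatine kinase of muscle, had 2346, 2327, 2246 and 2042 CPM at 5 weeks against 157, 167 and 233 CPM at P1, a log2 change of 3.66 ± 0.11 (adjusted p = 1.64e-16). Mb, the oxygen store myoglobin, rose by 1.91 ± 0.11 (adjusted p = 2.13e-12). Ckb, brain creatine kinase, averaged 61 ± 5.02 CPM at 5 weeks (SD, n = 4) and 128 ± 25.2 CPM at P1 (SD, n = 6). Ckm, muscle creatine kinase, which shares 31.9% of its exon length with another gene, differed little, at 2260 to 2829 CPM at 5 weeks and 1750 to 2465 CPM at P1. Its log2 change of 0.29 ± 0.12 (adjusted p = 0.031) lost its call in 10 of 21 alternatives. Vdac2, a channel of the outer membrane, was not called, at 298 CPM on average in each group.

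Genes of mitochondrial shape and turnover, the subject of the series, rose in part. Mfn2, at chr4:147873595-147904819 in mm10, had 1429, 1481, 1316 and 1287 CPM at 5 weeks against 614, 644 and 711 CPM at P1. The 5-week hearts were all higher, and the log2 change was 1.09 ± 0.09 (adjusted p = 1.03e-09). Mfn1, its relative, averaged 271 ± 13.9 CPM at 5 weeks (SD, n = 4) and 119 ± 7.97 CPM at P1 (SD, n = 6), and Opa1, the fusion protein of the inner membrane, averaged 202.6 ± 9.99 CPM at 5 weeks and 102.5 ± 10.1 CPM at P1. Mtfp1, a promoter of fission, rose by 1.79 and Oma1, a protease that cuts OPA1, by 1.53 on the log2 scale, while Pld6, a lipase of the outer membrane, fell by 1.67 at under 3 CPM in every library. In this list 13 of 17 rose and 3 fell (median 0.69). Mfn1 and Opa1 were not called between tet-off hearts of both ages, where age and library batch coincide.

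Pink1, at chr4:138313410-138326296, had 724, 685, 630 and 642 CPM at 5 weeks against 151, 183 and 195 CPM at P1, a log2 change of 1.91 ± 0.09 (adjusted p = 6.39e-14). Park2, the gene of Parkin, at chr17:10840384-12063360, was scarce, with 5.6, 5.89, 6.47 and 3.49 CPM at 5 weeks against 2.75, 4.35 and 4.7 CPM at P1. Its groups overlapped and it was not called (0.41 ± 0.19, adjusted p = 0.0582). It was called, as higher at 5 weeks, in 6 of 21 alternatives, and over all of them its log2 change ran from 0.073 to 0.92. Among mitophagy receptors Optn, optineurin, had 149, 138, 139 and 110 CPM at 5 weeks against 25.2, 30.4 and 33.3 CPM at P1. Bnip3, of the outer membrane, rose by 1.56 ± 0.10 and Sqstm1, p62, by 1.49 ± 0.10 on the log2 scale. Bnip3l, also called NIX and known for clearing mitochondria from red cell precursors, and Becn1, which starts autophagosomes, were not called, at -0.14 and -0.10. Of 27 mitophagy and autophagy genes 16 rose and 4 fell (median 0.435).

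Among regulators, several nuclear receptors and hormone targets rose. Thrb, the thyroid hormone receptor beta, had 27.1, 29.4, 32.1 and 37.8 CPM at 5 weeks against 1.28, 1.7 and 2.55 CPM at P1, a log2 change of 4.14 ± 0.15 (adjusted p = 1.76e-15). Rxrg, the retinoid X receptor gamma, averaged 76.2 ± 7.4 CPM at 5 weeks (SD, n = 4) and 3.5 ± 1.85 CPM at P1 (SD, n = 6). Klf9, a target of thyroid and glucocorticoid hormones, rose by 2.34. Hif3a, a hypoxia factor, fell by 3.09 ± 0.19 on the log2 scale. Esrra, the estrogen-related receptor of mitochondrial genes, and Tfam, which packs mitochondrial DNA, were not called, at 0.16 ± 0.07 and 0.14 ± 0.08. In all 18 of 28 rose and 6 fell (median 0.74).

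Cardiac transcription factors mostly fell, 12 of 19 against 4 that rose (median -0.50). Hey2, which keeps compact ventricular muscle distinct, had 4.74, 4.75, 4.35 and 6.43 CPM at 5 weeks against 53.8, 58.6 and 72.4 CPM at P1, a log2 change of -3.59 ± 0.14 (adjusted p = 7.93e-15). Irx4, of ventricular identity, averaged 41.5 ± 2.37 CPM at 5 weeks (SD, n = 4) and 113 ± 5.69 CPM at P1 (SD, n = 6). Hand1, of the early left ventricle, had no read at 5 weeks and 2.68 to 4.25 CPM at P1. With 3 counts over the 5-week group as the floor, it was at least 36-fold lower at 5 weeks. Mef2d was not called, at 174 ± 5.8 CPM at 5 weeks (SD, n = 4) and 158 ± 18.5 CPM at P1 (SD, n = 6).

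The elongation factor pair had the widest shift of the 20 pairs set side by side. Eef1a1, the general elongation factor, had 922, 978, 841 and 950 CPM at 5 weeks against 3924, 4429 and 6189 CPM at P1 (log2 change -2.36 ± 0.14, adjusted p = 3.99e-12). Eef1a2, its form in muscle and neurons, had 1820, 1817, 1821 and 1697 CPM at 5 weeks against 324, 399 and 425 CPM at P1 (log2 change 2.22 ± 0.10, adjusted p = 2.29e-14). By FPKM, Eef1a2 made up 6.51% ± 1.31 of the pair at P1 (SD, n = 6), 40.4% ± 6.72 at P21 (SD, n = 3) and 61.9% ± 1.99 at 5 weeks (SD, n = 4). Eef1a1 has many processed copies in the genome, so its level is uncertain. The same RNA gave 830, 908 and 886 CPM in the P1 batch and 536, 386 and 110 CPM in the 5-week batch. Of 24 translation genes 5 rose and 12 fell (median -0.20), and the ribosome factor Nolc1 was not called.

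**Figure D3:**
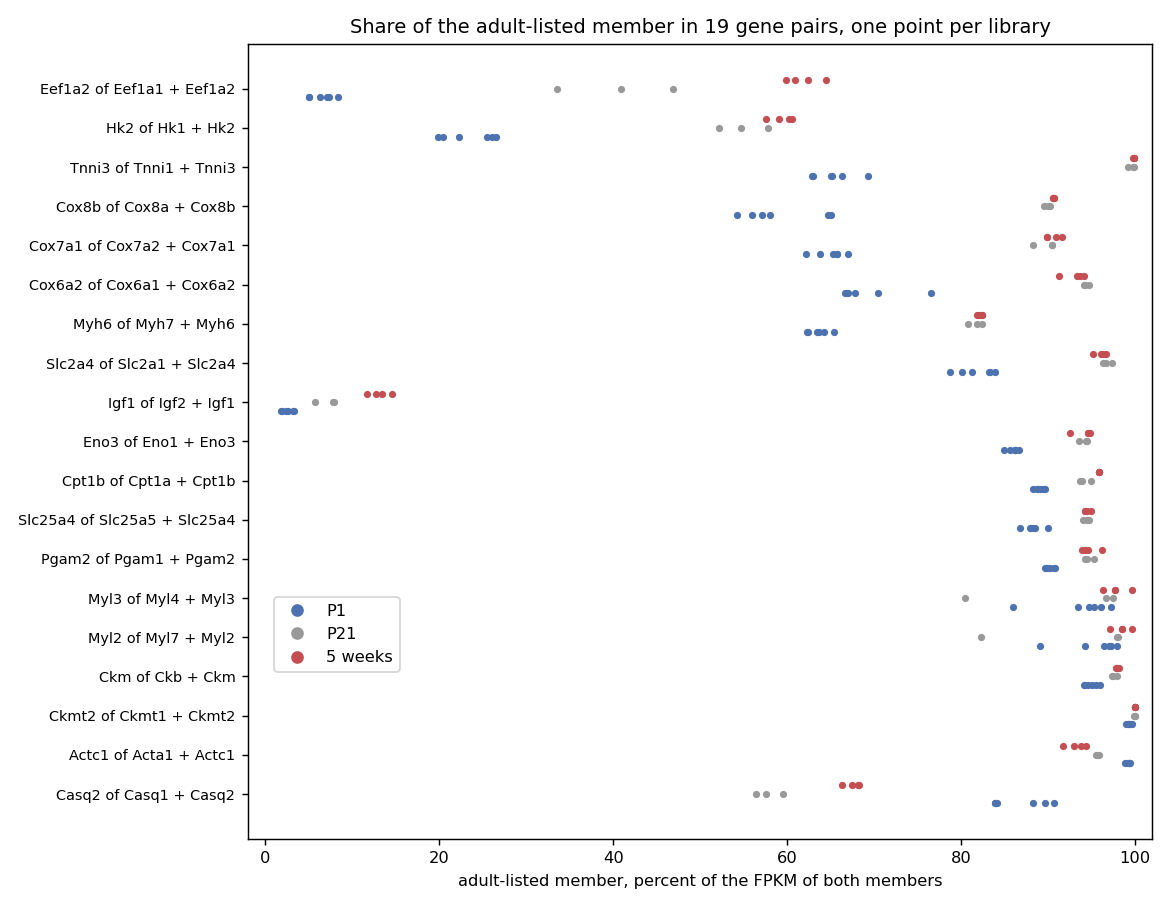
Share of the adult-listed member in the summed FPKM of 19 of the 20 gene pairs (horizontal axis, percent), one point per library, at P1 (blue), P21 (grey) and 5 weeks (red). Eef1a2 and Hk2 move furthest, the groups of 5 weeks and P1 overlap for Myl3 and Myl2 alone among the pairs drawn, and Actc1 and Casq2 have a lower share at 5 weeks than at P1.

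Over the 20 pairs the adult-listed member's share differed without overlap between 5 weeks and P1 in 18, higher at 5 weeks in 16 and lower in 2. The 2 lower were Actc1 and Casq2 (67.5% ± 0.876 at 5 weeks and 86.8% ± 3.16 at P1, SD, n = 4 and 6). Splicing factors split, with 6 of 15 risen and 9 fallen (median -0.33). Rbfox1, a muscle and brain splicing factor, averaged 73.5 ± 6.78 CPM at 5 weeks (SD, n = 4) and 23.5 ± 4.26 CPM at P1 (SD, n = 6). Mbnl1, which drives adult splice forms, rose by 1.06 ± 0.08 and Ptbp1, a repressor of muscle exons, fell by 1.06 ± 0.07 on the log2 scale.

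Of 28 genes of growth signals 11 rose and 9 fell (median -0.04). These shares of 39.3% and 32.1% lay near the background of 32.6% and 34.6%. Tead2, a DNA-binding partner of YAP in embryos, had 9.19, 6.61, 7.59 and 9.74 CPM at 5 weeks against 71.4, 72.9 and 81.6 CPM at P1 (log2 change -3.21 ± 0.12, adjusted p = 3.42e-15). Erbb2, the neuregulin coreceptor, averaged 23.9 ± 3.57 CPM at 5 weeks (SD, n = 4) and 71.8 ± 5.76 CPM at P1 (SD, n = 6). Fgf1, a growth factor, rose by 1.48, and Lats1, a Hippo kinase, was not called (-0.01 ± 0.10).

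Of 43 genes of the matrix around the cells 13 rose and 24 fell (median -0.56). Fbn2, the fetal fibrillin, had 5.46, 5.79, 5.35 and 9.19 CPM at 5 weeks against 143, 159 and 208 CPM at P1 (log2 change -4.75 ± 0.24, adjusted p = 1.11e-09). Postn, periostin, of growing and injured matrix, averaged 58.4 ± 15.7 CPM at 5 weeks (SD, n = 4) and 438 ± 77.3 CPM at P1 (SD, n = 6). Col1a1, the main fibrillar collagen, fell by 1.54. Col8a1, a short-chain collagen, rose by 3.22 and Dcn, decorin, by 1.88 on the log2 scale. Col6a1 was not called, at 248 ± 20.3 CPM at 5 weeks (SD, n = 4) and 256 ± 43.1 CPM at P1 (SD, n = 6).

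Antioxidant genes rose in 16 of 25 cases and fell in 3 (median 0.52). Sod3, the extracellular superoxide dismutase, had 51.8, 81.8, 61.8 and 66 CPM at 5 weeks against 2.37, 4.46 and 5.77 CPM at P1. Nqo1, a quinone reductase, rose by 2.45 ± 0.10 and Prdx4, a peroxiredoxin of the endoplasmic reticulum, fell by 1.54 ± 0.15 on the log2 scale. Sod1 was not called, at 224 ± 18.5 CPM at 5 weeks (SD, n = 4) and 229 ± 18.5 CPM at P1 (SD, n = 6).

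Of 14 natriuretic and stress genes 6 rose and 2 fell (median 0.33). Ankrd1, a stretch-responsive cofactor, averaged 1433 ± 214 CPM at 5 weeks (SD, n = 4) and 568 ± 177 CPM at P1 (SD, n = 6), a call lost with tet-off hearts at P1 and with tet-off hearts of both ages. Fos, an early response gene, rose, at 5.1 to 18.2 CPM at 5 weeks and 0.909 to 2.85 CPM at P1. Myc, a transcription factor of growth, fell by 1.79 ± 0.17 on the log2 scale. Nppa, atrial natriuretic peptide, was not called, at 144 to 584 CPM at 5 weeks and 184 to 1096 CPM at P1.

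Clock genes rose in 12 of 17 cases and fell in 2 (median 0.86). Nr1d1, the repressor REV-ERB alpha, had 251, 266, 166 and 146 CPM at 5 weeks against 39.4, 54.9 and 61.8 CPM at P1. Dbp, a clock output factor, varied alike, at 90.2, 73.2, 48.1 and 43 CPM at 5 weeks against 13.8, 16 and 20.3 CPM at P1. Npas2 fell by 2.72 ± 0.15 and Clock itself was not called (-0.17 ± 0.10). The time of day of collection is not in the labels, and its part in these changes was not tested.

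Cells other than cardiac muscle also differed. Of 14 macrophage markers 13 rose and none fell (median 1.84), and their sum ran from 451 to 555 CPM at 5 weeks and from 116 to 143 CPM at P1. Csf1r, the growth factor receptor of macrophages, had 90.5, 97.6, 78.6 and 80.3 CPM at 5 weeks against 19.6, 22.4 and 24.5 CPM at P1. Lyz2, lysozyme, rose by 2.88 ± 0.14 on the log2 scale. Cx3cr1, the fractalkine receptor, was the member not called, at 14.4 to 18.7 CPM at P1, 36.2, 32.4 and 38.5 CPM at P21 and 8.27 to 17.4 CPM at 5 weeks.

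Antigen presentation and interferon-stimulated genes had the highest median of the pathway lists (1.64), with 18 of 19 risen and none fallen. Cd74, the chaperone of class II molecules, had 142, 126, 100 and 101 CPM at 5 weeks against 3.03, 5.47 and 7.73 CPM at P1 (log2 change 4.33 ± 0.17, adjusted p = 3.91e-12). H2-Ab1, a class II chain, averaged 17.2 ± 3.69 CPM at 5 weeks (SD, n = 4) and 0.791 ± 0.257 CPM at P1 (SD, n = 6), and Oas2, an antiviral enzyme, rose by 3.90. H2-Eb1 was not called, at 1.83 ± 0.421 CPM at 5 weeks (SD, n = 4) and 1.42 ± 0.274 CPM at P1 (SD, n = 6). It was called as higher at 5 weeks with tet-off hearts at P1 (log2 change 1.07), with 5-week libraries of the 5-week batch (1.94) and with tet-off hearts of both ages (4.25). The macrophage markers above rose beside these genes, and their part in the rise was not tested.

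Of 7 Schwann cell and nerve markers 5 passed the count filter, and all 5 rose (median 2.87). Their list summed to 14.2 to 37.1 CPM at 5 weeks and 5.41 to 7.44 CPM at P1. Members scarce at P1 could pass the filter only through the older libraries, so their direction was largely fixed in advance. Sox10, the factor of that lineage, averaged 4.3 ± 1.41 CPM at 5 weeks (SD, n = 4) and 0.581 ± 0.179 CPM at P1 (SD, n = 6). Epicardial and mesothelial markers fell in 7 of 8 cases (median -1.13), their sums being 32.2 to 47.7 CPM at 5 weeks and 78.6 to 111 CPM at P1. Upk3b, a mesothelial marker, had 13.1 to 21.3 CPM at P1, 16.8, 16.9 and 22.8 CPM at P21, and 11.9, 8.68, 4.98 and 5.88 CPM at 5 weeks. Wt1, the epicardial zinc finger factor, fell by 1.17 ± 0.15 on the log2 scale.

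Fibroblast markers moved both ways, 7 of 12 up and 4 down. Pi16, of a vessel-near subset, averaged 84.1 ± 15.1 CPM at 5 weeks (SD, n = 4) and 7.12 ± 2 CPM at P1 (SD, n = 6), whereas Tcf21, the lineage factor, averaged 11.7 ± 1.26 CPM at 5 weeks and 29.4 ± 5.27 CPM at P1. Among 14 endothelial markers 8 rose and 1 fell: Aqp1, a water channel, rose by 2.22 and Cldn5, a tight junction protein, fell by 2.17 on the log2 scale. Of 10 mural and smooth muscle markers 7 rose and 2 fell. Their sum ran from 1230 to 1480 CPM at 5 weeks and from 1430 to 1900 CPM at P1. Myh11, smooth muscle myosin, averaged 161 ± 45 CPM at 5 weeks (SD, n = 4) and 30.6 ± 7.08 CPM at P1 (SD, n = 6). Acta2, smooth muscle actin, fell, at 389 ± 27.5 CPM at 5 weeks (SD, n = 4) and 1060 ± 183 CPM at P1 (SD, n = 6). Only 3 of 16 listed red cell markers passed the count filter, and all 3 fell, while 5, adult globin genes among them, had no counted read in any of the 10 libraries. The count of 0 is no measure of their level: in the authors' FPKM values Hbb-b1, an adult beta globin, ran from 428 to 588 FPKM at 5 weeks and from 863 to 1369 FPKM at P1. Alas2, the heme enzyme of red cells, was at 27.5 to 40.1 CPM at P1, at 90.5, 74.4 and 108 CPM at P21 and at 24.1, 21.4, 24.1 and 19.1 CPM at 5 weeks. Of 9 neutrophil and myeloid precursor markers 3 passed the filter, 1 risen and 2 fallen. The risen one, Ltf, rested on heart B, at 31.6 CPM there and 2.01 CPM at most in the other 5-week hearts, against 0.997 to 2.25 CPM at P1. Its log2 change of 2.68 was -0.93 without that heart, and its call was lost in 12 of 21 alternatives. S100a9, a neutrophil protein, averaged 0.272 ± 0.104 CPM at 5 weeks (SD, n = 4) and 5.99 ± 2.26 CPM at P1 (SD, n = 6).

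**Figure D4:**
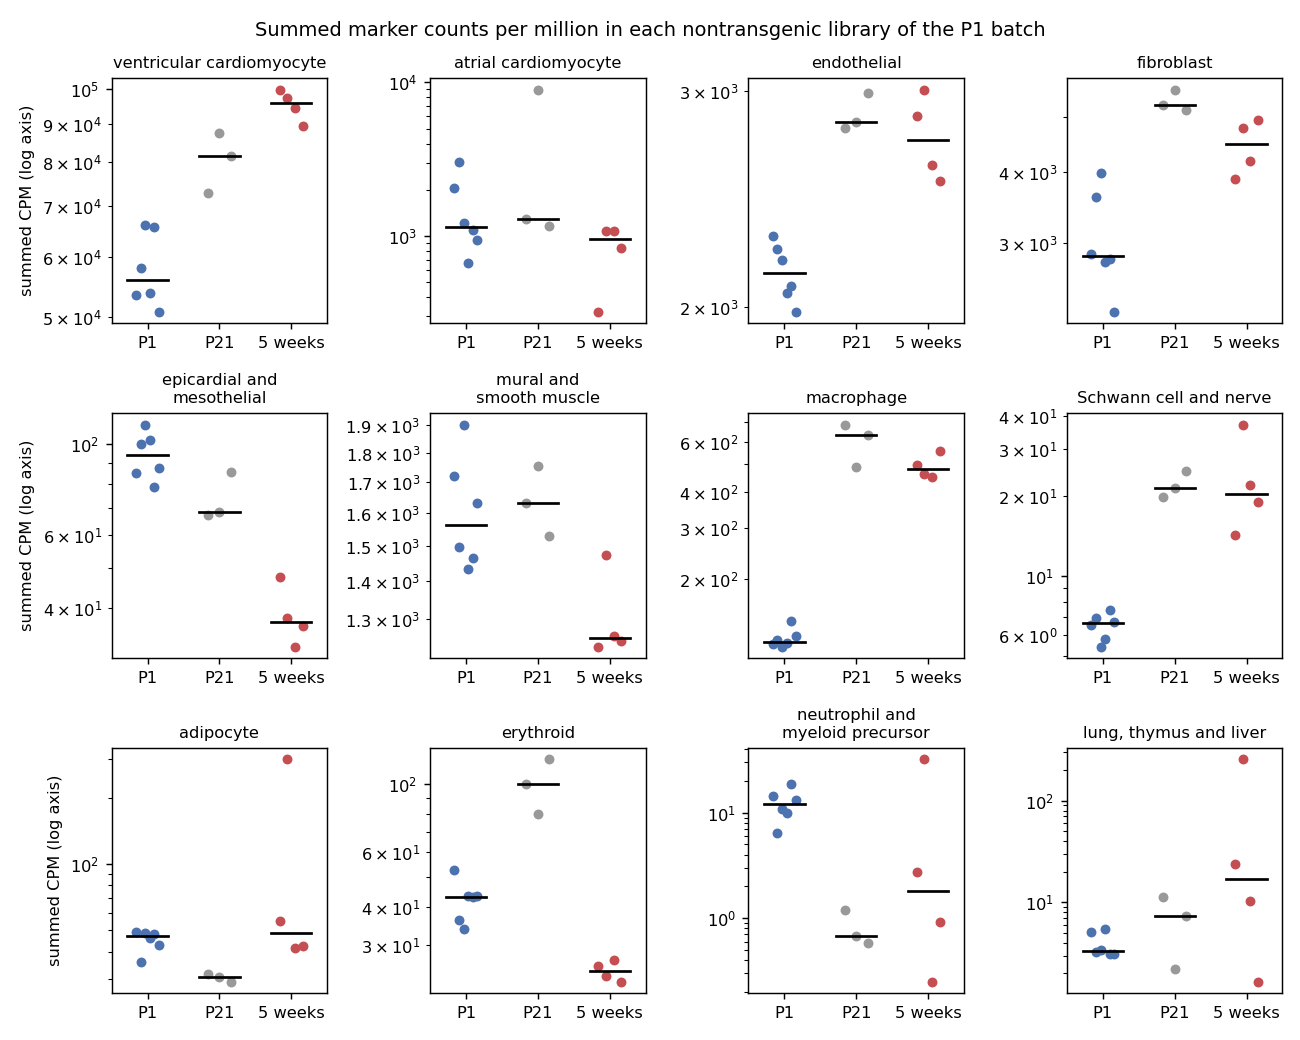
Summed CPM (log axis) of the markers of 12 cell types or tissues in each nontransgenic library of the P1 batch at P1, P21 and 5 weeks, with bars at the median. Macrophage and Schwann sums lie higher at 5 weeks than at P1 and epicardial sums lower, and 1 library at 5 weeks (heart B) stands above the others for adipocyte (299 CPM), neutrophil (32.0 CPM) and lung, thymus and liver markers (255 CPM). In heart B the neutrophil sum is nearly all Ltf (31.6 CPM) and the lung, thymus and liver sum nearly all Scgb1a1 (252 CPM).

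By the rule of size, the 15 greatest rises among genes of at least 10 CPM include several in which heart B stood far above the other 5-week hearts. They are Scgb1a1, Scgb3a1, another airway secretoglobin (47.5 CPM there and 0.622 to 1.87 CPM in the others), Cfd, the adipocyte protein adipsin (30.1 CPM and 3.73 to 7.9 CPM), Cidec, a lipid droplet protein (35.8 CPM and 2.02 to 2.86 CPM), and Pck1, a gluconeogenic enzyme that adipocytes also hold (81.6 CPM and 1.37 to 4.45 CPM). Without that heart the log2 change was 2.35 in place of 5.80 for Scgb3a1, 5.30 in place of 7.50 for Cidec, 7.59 in place of 8.69 for Cfd and 3.10 in place of 6.10 for Pck1. The calls of Scgb3a1, Cidec, Cfd and Pck1 were kept without it, so their sizes depend on heart B more than their direction. The part of tissue from beside the heart in these values was not tested.

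For the other great rises named here, heart B was not among the flagged libraries described at the end. Ces1d, a carboxylesterase that cleaves lipids, had 91.9, 118, 72 and 94.6 CPM at 5 weeks against 0.374, 0.659 and 0.979 CPM at P1. Cxcl14, a chemokine, averaged 16.6 ± 2.67 CPM at 5 weeks (SD, n = 4) and 0.16 ± 0.184 CPM at P1 (SD, n = 6), with a log2 change of 6.54, or 7.21 without P1 heart 5. Lgi1, a secreted protein known from synapses, averaged 11.1 ± 2.85 CPM at 5 weeks and 0.239 ± 0.296 CPM at P1, with a log2 change of 5.43, or 6.03 without that P1 library. C7, a complement protein, and Cbr2, a carbonyl reductase of lung, ranged from 6.47 to 24.3 CPM and from 23.3 to 114 CPM at 5 weeks, and reached 0.623 and 3.23 CPM at most at P1. For Cbr2 the log2 change of 5.43 was 4.68 without heart B and 6.03 without P1 heart 5.

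Great falls outside the lists came with low levels in every 5-week heart. Cited1, a transcription cofactor of embryos, had 1.58, 0.723, 0.871 and 1.65 CPM at 5 weeks against 55.9, 66.6 and 77.3 CPM at P1 (log2 change -5.87 ± 0.23, adjusted p = 1.3e-13). Vash2, an angiogenic vasohibin, averaged 0.875 ± 0.115 CPM at 5 weeks (SD, n = 4) and 46.5 ± 5.69 CPM at P1 (SD, n = 6). Lpar3, a receptor for lysophosphatidic acid, fell by 5.18 and P4ha3, a collagen prolyl hydroxylase subunit, by 5.52 on the log2 scale. Bex4 and Tceal5, small X-linked proteins of a shared family, fell by 6.02 and 5.37. Without heart A the log2 change of Tceal5 was -6.34. Olfr609, an olfactory receptor gene at chr7:103491917-103492876, had no read at 5 weeks and 6.06 to 14 CPM at P1, at least 104-fold lower at 5 weeks with 3 counts over the 5-week group as the floor.

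The P21 hearts of the same batch place these changes in time, with the caution that each pair of tests shares libraries. The labels give left ventricle for the P21 hearts, as at 5 weeks. Age and labelled tissue therefore cannot be told apart between P21 and P1 either. The titles of all 3 P21 hearts share the first part of their animal number. One of these hearts held 1723 CPM of the atrial Myl7, against 215 and 197 CPM in the others. Between P21 and P1, 7752 genes were called (57.3%), and between 5 weeks and P21, 2960 (21.9%). Thrb had 25.8, 29.4 and 32.3 CPM at P21, already at its 5-week level (log2 change 0.11 ± 0.13 for 5 weeks over P21, adjusted p = 0.576), and Ckmt2 had 1691, 1790 and 1909 CPM. Scn4b was at 10.8, 25.3 and 20.8 CPM at P21, and its changes were 2.07 ± 0.25 for P21 over P1 and 2.23 ± 0.24 for 5 weeks over P21 (adjusted p = 1.025e-05 and 5.22e-05). Pink1 had 442, 466 and 496 CPM at P21, between its levels at P1 and 5 weeks, with changes of 1.39 ± 0.09 and 0.52 ± 0.11 (adjusted p = 6.4e-11 and 0.00157). Mfn2 had 917, 1192 and 1099 CPM, with changes of 0.72 ± 0.10 and 0.37 ± 0.11 (adjusted p = 2.49e-06 and 0.0219). Myh7 had 2096, 2888 and 2324 CPM at P21, below both its P1 and its 5-week levels.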

How the data were processed

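Single-end, non-strand-specific libraries of polyadenylated RNA were aligned to mm10 with Bowtie2 and TopHat2 2.0.10, per the submitters' processing notes. The authors deposited raw HTSeq read counts per gene, Cufflinks 2.1 FPKM values per transcription start group and gene models with base positions. The mm10 base positions deposited by the authors gave the coordinates printed here. Reads over overlapping genes are ambiguous in such counts, and antisense partners cannot be told apart.

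Counts were analysed with edgeR 4.0.16 in R 4.3.3: genes passing filterByExpr, TMM scaling, and a robust quasi-likelihood test with Benjamini-Hochberg adjustment over all genes tested, called at an adjusted p under 0.05. The 3 nontransgenic P21 libraries of the batch were in the fit. Isoform shares are from FPKM, with no test. Counts of list members refer to those that passed the filter.

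Genes named are Mfn2, Park2 and Pink1, from each list the 6 called members that moved most (fewer in short lists) and as many as 3 uncalled ones of highest mean CPM, both members of each pair, and the 15 greatest rises and 15 greatest falls with a group mean of at least 10 CPM and no overlap. Some were left out for length, and a few genes are not reported here. The comparison, lists and pairs were chosen with earlier results of these data known.

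Alternatives were RLE and upper-quartile scaling, leaving out Rn45s and mitochondrial genes, no filter, DESeq2 1.42.0, limma 3.58.1 on log2(FPKM + 1) and log2(FPKM + 0.1), the 10 libraries alone, other hearts or libraries, and leaving out each library. Simulated counts for this comparison held 13333 genes, of which 67 were changed 1.5-fold, 67 were changed 2-fold and 66 were changed 4-fold. Of these, 65.7%, 77.6% and 100% were recovered, and 4.14% of calls were false. Far fewer genes were changed there than were called in the data, so these rates do not give the sensitivity of the real comparison. Floors at 3 counts cover counting error only. Promoters are from RefSeq on GRCm38.p6.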

Additional observations from a re-analysis of the deposited data

Results flagged for a closer look

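In 36 of 344 groups of 4 or 6 libraries checked, the highest or the lowest library stood further from the rest than Dixon's 95% limit. Chance flags about 1 in 20 groups. Their causes were not tested.

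At 5 weeks, heart B was high for 8 genes, of fat or airway kind apart from Ltf. Scgb1a1 was at 252 CPM, Pck1 at 81.6, Scgb3a1 at 47.5, Cidec at 35.8 and Cfd at 30.1 CPM. Plin1, a lipid droplet coat, was at 22.4 CPM and Adipoq at 12.6 CPM. Ltf, the granule protein lactoferrin, was at 31.6 CPM, of 32.0 CPM summed there over the neutrophil list. Heart A was low for Myl9 (57.0 CPM), Ptbp1 (54.8), Col8a1 (36.3) and Gja5 (7.18) and high for Acot1 (8.04 CPM). Heart D was low for Eef1a2 (1697 CPM) and high for Fbn2 (9.19) and Myc (8.27 CPM). Heart C was high for Hcn2 (69.2 CPM) and low for Ccnb2 (0.498 CPM).

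At P1, heart 5 was high for 8 genes: Tnnt2 at 14915 CPM, Tnni3 at 3360, Tcap at 346, Ckmt2 at 233, Xirp2 at 39.5, Scn4a at 5.97, Cbr2 at 3.23 and Ltf at 2.25 CPM. It was low for Mest (293 CPM) and Vash2 (35.1 CPM). Heart 1 was high for Sod1 (264 CPM), Bnip3 (27.0) and Npas2 (18.6) and low for Hk2 (119 CPM). Heart 3 was low for Park2 (2.75 CPM) and Cdc25c (2.66 CPM), heart 4 low for Ptbp1 (123 CPM) and heart 6 high for Igf2bp1 (27.7 CPM).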

How the results depend on the processing

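Under all alternatives run, the count of called genes stayed within 1.5 times 9106 and that of genes changed at least 2-fold within 1.5 times 3306. The genes behind the count moved more: 73.3% of the calls were kept in the same direction with 5-week libraries of the 5-week batch, where 163 were called in the opposite direction, and 63.0% with tet-off hearts of both ages, where 154 were. With P1 tet-off hearts 85.0% were kept and 2 were opposite, and on FPKM 78.5% or 78.3% and 6. Leaving out each library in turn gave 8467 to 8985 and 3227 to 3320. The split moved on FPKM: limma on log2(FPKM + 1) called 2892 higher and 6505 lower, and log2(FPKM + 0.1) 2875 and 6499, with medians of -0.247 and -0.292. With upper-quartile scaling 43.6% of calls were higher, against 48.5%. Of 3758 values of described genes, 22 reversed, among genes not called in the count test except Ltf. With tet-off hearts of both ages these were Gmnn (-0.55), Actc1 (-0.64), Casq2 (-0.62), Kcna5 (1.125), Fabp3 (0.79), Atp5g3 (0.54), Vdac2 (-0.53), Col6a1 (0.71), Cx3cr1 (1.075) and Ltf (-3.91). With 5-week libraries of the 5-week batch they were Casq2 (-0.47), Kcna5 (0.45), Fabp3 (0.41), Atp5g3 (0.86) and Col6a1 (0.41), and with P1 tet-off hearts Fabp3 (0.36). On FPKM they were Tnnt2 (-0.19 with either pseudocount), Vdac2 (-0.24 with either) and Ltf (-0.14 with 0.1), and without heart B Ltf (-0.93, against 2.68). Leaving out each library in turn, the value for Ltf ran from -0.93 to 3.09. The causes were not tested.

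Calls lost with tet-off hearts of both ages, where age and batch coincide, were Myh7, Mfn1, Opa1, Ptbp1, Fgf1, Ankrd1, Wt1, Upk3b, Pck1, Myl2 and Myl3. Cdkn1c, Ckb, Myh7, Myl2, Myl3, Slc2a1 and Ltf were lost with 5-week libraries of the 5-week batch, and Fgf1, Ankrd1, Myl2, Ckm and Ltf with P1 tet-off hearts. Over all alternatives 16 of 145 called genes described lost the call at least once, most often Ltf (12 of 21), Ckm (10) and Myl2 (7). An alternative in which a gene was not tested does not count as a loss. Scgb1a1 was tested in 15 of the 21, Adipoq and Scgb3a1 in 18, Plin1 in 19 and Cidec in 20. Of 35 described genes not called, 27 were called in at least 1 alternative, most often Cox7a2 (8), Esrra (7), Park2 (6) and Myl7 (5). From counts per exon length the isoform differences were 23.3 points for Myh6, 8.82 for Cpt1b, 0.642 for Eno3, 32.4 for Cox7a1, 36.7 for Cox8b and 5.41 for Igf1. No paired analysis was possible because P1 and 5-week hearts share no number in the titles. Genes under about 1 CPM rest on few reads.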

Other observations

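Stored RNA of 3 hearts at 5 weeks was made into libraries in both batches, which lets remnants of P1 transcripts be set side by side. Among 10 described genes that fell at least 4-fold and averaged 100 CPM or more at P1, 5 were over 1.5 times higher in the P1 batch than in the 5-week batch and none was lower by that factor. The genes were chosen after their values were seen. Tnni1 averaged 10.7 CPM in the P1 batch and 0.536 CPM in the 5-week batch, a ratio of 20. Postn had a ratio of 3.22, Eef1a1 of 2.54, Mest of 1.87 and Fbn2 of 1.76. Igf2, H19, Plagl1, Myl9 and Kcne1 had ratios of 1.18, 1.12, 0.97, 1.0 and 1.39. The cause was not tested.

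Promoters of 98 of the 122 risen genes of the mitochondrial energy lists were found. TCAAGGTCA, the extended element of estrogen-related receptors, was read on both strands. It was in 1 of the 98 genes (1.02%), against 0.466% of all genes. Its core AAGGTCA was in 7 of the 98 (7.14%), against 5.38%. With so few matches these shares show no difference. CCAAT was in 48.0% of them and TTTGAA in 14.3%.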
